A study of Danio rerio with 32 samples.

Results

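Translation initiation and elongation factors are the soluble proteins that load messenger RNA and initiator tRNA onto the ribosome and then move the ribosome along the message. The members were genes of the count table whose symbol starts with eif and a digit, or with eef1 or eef2, without the eIF2 kinases (eif2ak) and the 4E-binding proteins (eif4ebp), and with at least 10 counts in at least 8 of the 32 libraries. Of 76 genes with such a symbol, 69 met the count rule, and 14577 of the 31658 genes in the table met the same rule. The 7 genes left out for low counts were eif2b5, eif3bb, EIF3J, eef1a2, eef1e1, eef2a.1 and eef2a.2. Of the 69 members, 65 reached at least 10 counts in at least 8 libraries of each tissue alone, while eif2d, eif3hb and eif4e2 did so in muscle alone and eef2kmt in liver alone. By role, the members were 13 genes of start-codon scanning and the ternary complex, 4 of the eIF2B exchange factor, 16 of eIF3, 20 of the cap-binding complex and its partners, 3 of eIF5A and eIF6, 3 of eEF1A, 4 of the eEF1B exchange complex, 2 of eEF2, and 4 modifying enzymes.

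The fish were adult females of the AB zebrafish strain, and they carried a knockout of gys2, which encodes liver glycogen synthase, or were wild type. The 4 groups were gys2 knockout liver, wild-type liver, gys2 knockout muscle and wild-type muscle, with 8 libraries each, and the study's title names glucose metabolism in the knockout liver as its subject. The design text gives 8 fish per genotype, but not which liver and which muscle came from 1 fish, so libraries of different tissues were treated as independent. The sources used here do not give the knockout allele, the position of its lesion or the number of founder lines, so the knockout may stand for 1 line. Libraries were made by Lasy-Seq, which sequences the 3′ ends of polyadenylated transcripts, so that counts were not divided by transcript length.

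Initiation in vertebrates begins when eIF2, bound to GTP and initiator tRNA, joins the small ribosomal subunit with eIF1, eIF1A, eIF3 and eIF5. The cap complex, in which eIF4E binds the cap, eIF4G is the scaffold and eIF4A is an RNA helicase helped by eIF4B and eIF4H, recruits the message. During elongation eEF1A delivers each aminoacyl-tRNA, the eEF1B complex recharges eEF1A with GTP, eEF2 translocates the ribosome and eIF5A eases stalled peptide bonds. Many messages for these factors and for ribosomal proteins carry a 5′ terminal pyrimidine tract in mammals and are translated under control of mTORC1, and liver is an organ with heavy synthesis of secreted proteins.

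The check of the targeted gene matched the labels in liver: gys2 had 1 to 19 counts in the 8 knockout livers and 6 to 37 in the 8 wild-type livers. On the log2(CPM + 0.5) scale its difference, knockout minus wild type, was -2.66 in liver (exact permutation test, two-sided, p = 0.000311), while in muscle, with 1 to 12 counts in knockout and 0 to 15 in wild type, the difference was 0.59 (exact permutation p = 0.257). A 3′ tag need not lie in the altered stretch. Library totals ran from 2562717 to 15351773 counts in knockout liver, 1514099 to 2366219 in wild-type liver, 2373329 to 3620243 in knockout muscle and 1664493 to 7264469 in wild-type muscle, so depth and genotype moved together in liver. Each of the 11 hepatocyte and 12 skeletal muscle markers looked up was detected in all 4 groups, and summed by tissue, hepatocyte markers were higher in liver and muscle markers higher in muscle. The muscle libraries numbered 6 stood apart: hepatocyte markers summed to 3696 CPM in knockout muscle 6 and 7482 CPM in wild-type muscle 6, against group medians of 829 and 826 CPM. In bulk tissue, fewer cells of a type and less RNA per cell cannot be told apart.

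The members held 2.40% ± 0.17 of all counts in knockout liver, 2.57% ± 0.182 in wild-type liver, 1.81% ± 0.121 in knockout muscle and 1.77% ± 0.0875 in wild-type muscle (SD, n = 8 each). The initiation factors alone held 1.31% in knockout liver and 1.46% in wild-type liver, against 1.28% in each muscle group. The elongation factors held 1.09% and 1.11% in knockout and wild-type liver, and 0.527% and 0.492% in knockout and wild-type muscle. Most of these counts came from a pair of genes. The first was eif1b, a paralogue of the start-codon selection factor eIF1, which held 0.92% of all counts in knockout liver and 1.07% in wild-type liver. The second was eef1a1l1, the main eEF1A gene, with 0.656% and 0.704%. In muscle eif1b held 1.00% of all counts in knockout and 1.01% in wild-type fish, so it also made up most initiation factor counts there. Without eif1b the members held 1.48% in knockout liver, 1.51% in wild-type liver, 0.809% in knockout muscle and 0.767% in wild-type muscle.

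The first comparison asks how the knockout changed the factors in liver. With TMM scaling most had a higher fitted level in knockout than in wild-type liver, which did not hold with library totals, and none passed the test. Of 62 members tested with edgeR's quasi-likelihood test, 0 had an adjusted p under 0.05, where 0.0742% of the 9438 genes tested did. At an unadjusted p under 0.05, 27 members were higher and 3 lower in knockout, where 10.3% of all genes were higher and 12.1% lower. The log2 change was positive for 50 members and negative for 12 (24 and 38 with library totals), with a median of 0.42 against -0.02 over all genes tested. No member's 8 knockout livers lay wholly above or below its 8 wild-type livers, as was so for 0.254% of all genes. With DESeq2 12 members were called higher, where 3.76% of genes were, and with limma-voom 6 were, where 1.18% of genes were, and neither called a member lower. The DESeq2 calls were eef1g, eef2b, eif2s2, eif3c, eif3k, eif3s10, eif3s6ip, eif4a1a, eif4a1b, eif4bb, eif5a and eif5a2, and the limma-voom calls eef2b, eif3c, eif3k, eif3s10, eif4a1b and eif5a2. With no filter on low counts, and with at least 50 counts in 8 libraries required, edgeR called 1 member, eif3c, where 0.340% and 1.34% of genes were called.

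The direction of the whole set in liver depended on how libraries were scaled. With TMM scaling 50 of 62 members were positive, with DESeq2 size factors 50 and with cyclic loess 47, but with library totals only 24 were, and 9 members were then called lower, where 34.3% of all genes were. Library totals moved the median of all genes to -0.54, and the median of the members to -0.11. Relative to the median of all genes, the median of the members lay 0.44 higher with TMM, 0.44 with DESeq2 size factors, 0.43 with library totals and 0.19 with cyclic loess. Vitellogenin transcripts, the egg-yolk precursors made by female liver, took 30.3% ± 12.1 of counts in knockout liver and 24.2% ± 7.86 in wild-type liver (SD, n = 8 each), a difference of means within 1 SD. The medians were 34.7% in knockout and 24.6% in wild-type liver, and the lowest library was knockout liver 1, at 5.44%. Leaving vitellogenin genes out before TMM scaling gave a member median of 0.42, and their part in the shift with library totals was not tested. With every library thinned to the depth of the shallowest, the member median was 0.41 and 0 members were called.

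**Figure D1:**
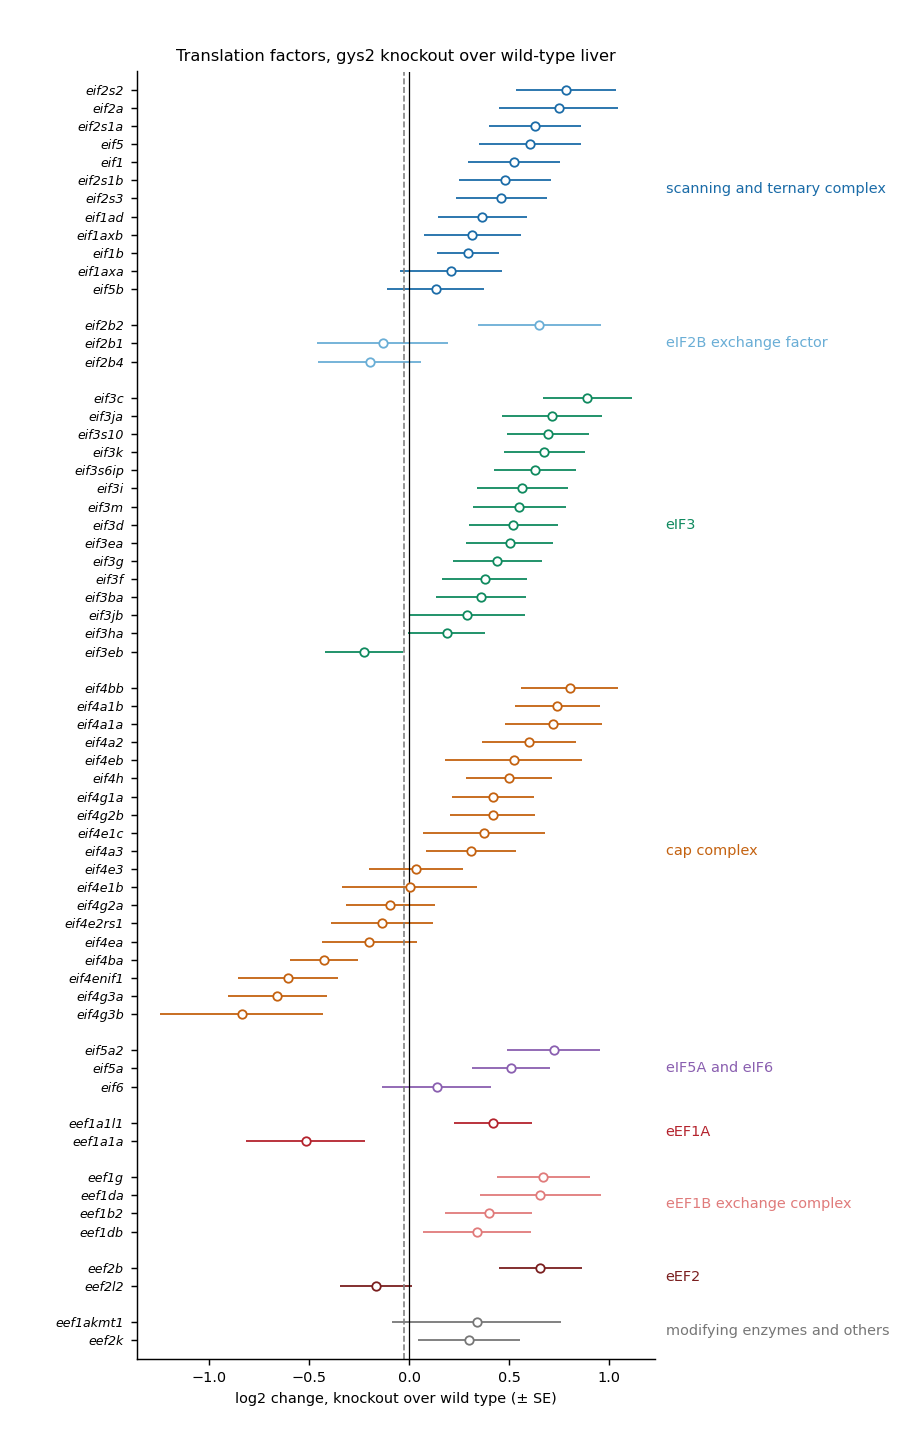
Log2 change of the 62 members tested, gys2 knockout over wild-type liver, by role; points are edgeR estimates with TMM scaling, bars are ± SE, the dashed line is the median of all genes tested (-0.02), and open points did not pass an adjusted p of 0.05. Each point is open, and 50 lie right of 0 and 12 left of it, 7 of them in the cap complex; with library totals 24 would lie right of 0.

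Among the scanning and ternary complex factors, each of the 12 members tested had a positive log2 change in knockout liver (5 of 12 with library totals, 11 with cyclic loess), with a median of 0.47 and a range of 0.13 to 0.78. The most abundant of them, eif1b, had 8964, 11996 and 13716 CPM (lowest, median, highest) in knockout liver and 7417, 9506 and 11025 CPM in wild-type liver. The groups overlapped, with 6 of 8 knockout livers above the wild-type median, and the log2 change was 0.29 ± 0.16 (edgeR adjusted p = 0.256), which turned negative with library totals (-0.23) and cyclic loess (-0.33). For the eIF2B exchange factor, which recharges eIF2 with GTP, 1 of 3 members tested was positive. Its most abundant subunit, eif2b4, had 9.15, 13.9 and 25.6 CPM in knockout liver and 11.2, 16.8 and 36.4 CPM in wild-type liver, and the log2 change of -0.20 ± 0.26 did not pass (edgeR adjusted p = 0.644).

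The eIF3 subunits, which form the scaffold that binds the small subunit, were positive for 14 of 15 members tested (7 of 15 with library totals), with a median log2 change of 0.52. With library totals the median was -0.005, which was 0.54 above the median of all genes. With cyclic loess it was 0.23, only 0.21 above the median of all genes. The member with the smallest p, eif3c, a core subunit, had 72.5, 111 and 149 CPM in knockout liver and 41.5, 49.9 and 90.2 CPM in wild-type liver. Each knockout liver exceeded the wild-type median, and 2 wild-type livers reached into the knockout range. Its log2 change was 0.89 ± 0.22 (edgeR adjusted p = 0.0859), and leaving out wild-type liver 2 or wild-type liver 5 brought it past the threshold, with edgeR adjusted p-values between 0.0397 and 0.181 over the 16 single libraries left out.

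The eIF3a gene, eif3s10, had 50.4, 60.9 and 82.1 CPM in knockout liver and 19.98, 42.2 and 54.9 CPM in wild-type liver, a log2 change of 0.69 ± 0.21 (edgeR adjusted p = 0.102). The small subunit gene eif3k had 39.0, 57.7 and 75.2 CPM in knockout liver and 24.1, 34.7 and 55.2 CPM in wild-type liver, a log2 change of 0.68 ± 0.20 (edgeR adjusted p = 0.102). For both genes each knockout liver exceeded the wild-type median, while the ranges overlapped. The most abundant subunit gene, eif3f, had 208, 374 and 452 CPM in knockout liver and 195, 247 and 436 CPM in wild-type liver, with a log2 change of 0.38 ± 0.21 (edgeR adjusted p = 0.283) that became -0.14 with library totals. The single negative eIF3 member was eif3eb, a paralogue of eif3ea chosen here after its value was seen, at -0.23 ± 0.20 (edgeR adjusted p = 0.481).

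The cap complex held genes with large log2 changes of both signs, none of which passed in edgeR with TMM scaling. Of the 7 eIF4A, eIF4B and eIF4H members, 6 were positive (5 with library totals), with a median log2 change of 0.60. Of the 11 eIF4G and eIF4E members tested, 6 were positive (1 with library totals), with a median of 0.0015. The helicase gene eif4a1b had 307, 469 and 608 CPM in knockout liver and 182, 298 and 394 CPM in wild-type liver. Its log2 change was 0.74 ± 0.21 (edgeR adjusted p = 0.0945), and each of the 8 knockout livers exceeded the wild-type median. The 2 eIF4B paralogues had opposite signs. For eif4bb the values were 33.9, 57.4 and 99.9 CPM in knockout liver and 25.5, 32.5 and 63.8 CPM in wild-type liver, a log2 change of 0.80 ± 0.24 (edgeR adjusted p = 0.103). For eif4ba they were 17.6, 27.6 and 36.8 CPM in knockout liver and 28.1, 37.8 and 40.5 CPM in wild-type liver, a log2 change of -0.43 ± 0.17 (edgeR adjusted p = 0.161). Each knockout liver was above the median of the wild-type livers for eif4bb and below it for eif4ba, which with library totals was called lower (edgeR adjusted p = 0.00441).

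The other members with the smallest p among those lower in knockout liver were also cap-complex genes, with one eEF1A gene. The scaffold gene eif4g3a had 2.72, 6.48 and 9.56 CPM in knockout liver and 7.32, 9.81 and 12.8 CPM in wild-type liver, a log2 change of -0.66 ± 0.25 (edgeR adjusted p = 0.148). Its paralogue eif4g3b had 1.27, 4.07 and 5.91 CPM in knockout liver and 0.918, 6.38 and 13.1 CPM in wild-type liver, a log2 change of -0.84 ± 0.41 (edgeR adjusted p = 0.226). Each knockout liver was below the median of the wild-type livers for both, but the wild-type livers of eif4g3b spanned the whole knockout range. The transporter gene eif4enif1, whose protein binds eIF4E, had 2.91, 6.21 and 9.60 CPM in knockout liver and 6.14, 8.89 and 12.98 CPM in wild-type liver, a log2 change of -0.61 ± 0.25 (edgeR adjusted p = 0.17), with 7 of 8 knockout livers below the wild-type median. The minor eEF1A gene eef1a1a, with 4.27, 6.79 and 12.7 CPM in knockout liver and 4.30, 9.32 and 18.3 CPM in wild-type liver, had a log2 change of -0.52 ± 0.30 (edgeR adjusted p = 0.284). With library totals, where 34.3% of genes were called lower, each of these genes passed (edgeR adjusted p = 0.00443 for eif4g3a, 0.0241 for eif4g3b, 0.00688 for eif4enif1 and 0.0127 for eef1a1a).

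**Figure D2:**
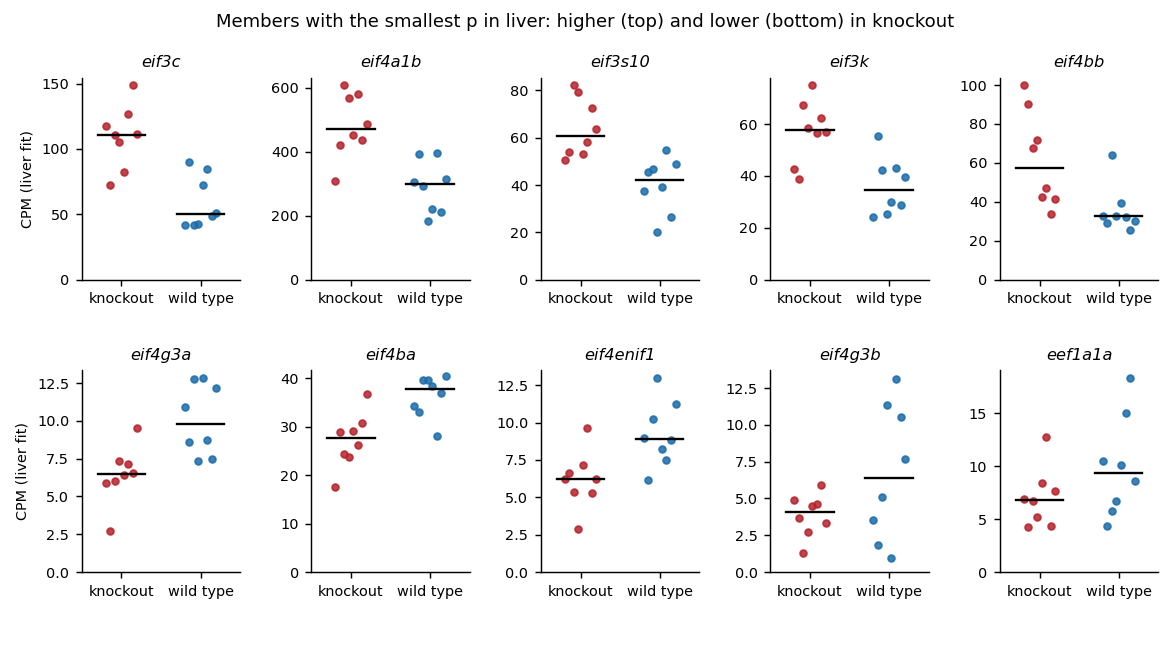
CPM of the 5 members with the smallest p among those higher (top) and the 5 among those lower (bottom) in knockout liver; each point is 1 liver and each bar the median of 8. The genes were picked by p in this comparison. In each panel the 2 groups overlap; for eif3c the 8 knockout livers sit between 72.5 and 149 CPM and the 8 wild-type livers between 41.5 and 90.2 CPM.

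No elongation factor passed the test either. All 4 eEF1B subunits were positive, with a median log2 change of 0.53 (2 of 4 positive under library totals and 3 of 4 under cyclic loess). The most abundant subunit gene, eef1g, had 609, 1222 and 2184 CPM in knockout liver and 528, 891 and 1239 CPM in wild-type liver, a log2 change of 0.67 ± 0.23 (edgeR adjusted p = 0.138). The main eEF1A gene eef1a1l1 had 4621, 7835 and 12273 CPM in knockout liver and 4448, 6034 and 7755 CPM in wild-type liver. The ranges overlapped with 7 of 8 knockout livers above the wild-type median, and the log2 change of 0.42 ± 0.20 (edgeR adjusted p = 0.211) became -0.12 with library totals and -0.20 with cyclic loess. The translocase gene eef2b had 1295, 2063 and 3491 CPM in knockout liver and 973, 1420 and 1853 CPM in wild-type liver, a log2 change of 0.66 ± 0.21 (edgeR adjusted p = 0.122). The elongation and initiation factor eif5a, the target of hypusine modification, had 708, 902 and 1157 CPM in knockout liver and 364, 672 and 845 CPM in wild-type liver, a log2 change of 0.51 ± 0.20 (edgeR adjusted p = 0.152). Each knockout liver was above the median of the wild-type livers for eif5a. The eEF2 kinase gene eef2k, whose product inhibits eEF2, had 12.4, 20.4 and 36.2 CPM in knockout liver and 8.49, 14.9 and 37.0 CPM in wild-type liver, and its log2 change of 0.30 ± 0.25 did not pass (edgeR adjusted p = 0.472) and became -0.20 with library totals.

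With TMM scaling the log2 change in liver went with abundance, among the members and in the table as a whole. At a mean of 200 CPM or more, all 10 members were positive with a median of 0.51, and 95.6% of all 365 genes at that level were positive with a median of 0.45. From 50 to 200 CPM all 16 members were positive with a median of 0.54, against 71.8% of all genes with a median of 0.30. From 10 to 50 CPM 20 of 26 members were positive with a median of 0.31, against 45.5% of all genes with a median of -0.06. Under 10 CPM 4 of 10 members were positive with a median of -0.17, against -0.09 for all genes. Ribosomal proteins are also abundant, and the ratio of the sums differed by less than the SD: member counts equalled 18.6% ± 1.92 of ribosomal protein counts in knockout liver and 19.1% ± 1.69 in wild-type liver (SD, n = 8 each).

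**Figure D3:**
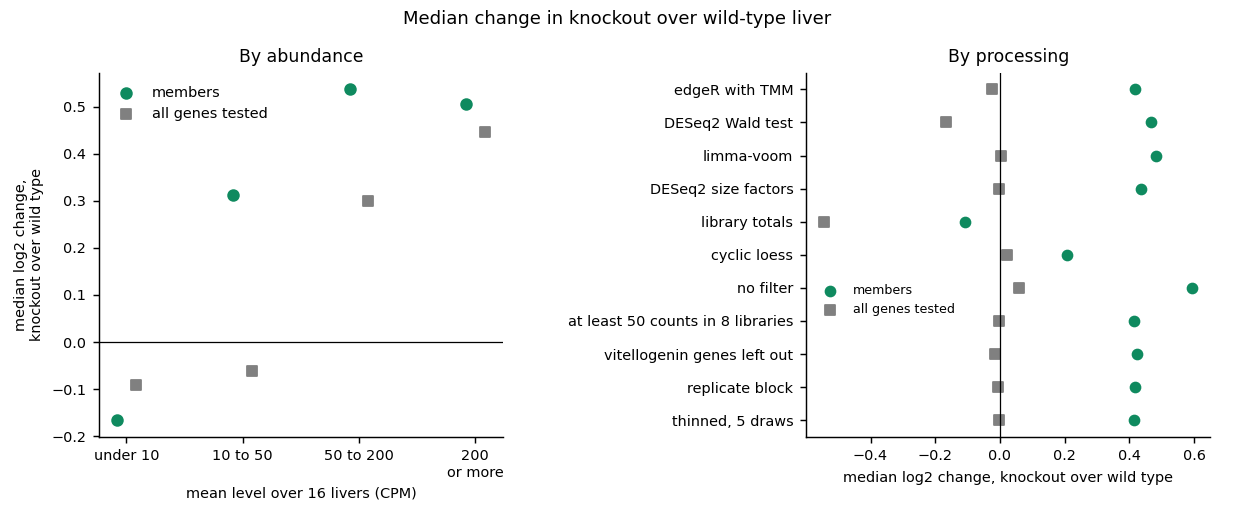
Median log2 change in knockout over wild-type liver of the members (circles) and of all genes tested (squares), by mean level over the 16 livers (left) and by processing (right). Both medians are highest from 50 CPM up, and library totals put both below 0, at -0.11 for the members and -0.54 for all genes.

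Among related genes of protein synthesis and its control, 0 passed the test in liver with edgeR, and the list medians ran from 0.12 to 0.53. At an unadjusted p under 0.05, 48 ribosomal protein genes, 9 synthetase, 4 termination and 2 mTORC1 genes and 1 gene of the hypusine list were higher. On the hypusine list odc1, the ornithine decarboxylase gene of polyamine synthesis, was lower, and the lists not named here had 0 in either direction. Of 76 cytosolic ribosomal protein genes tested, all 76 were positive with a median log2 change of 0.46, but 16 were positive under library totals and 21 under cyclic loess. The ribosomal protein gene rps27.2 had the smallest p of its list, with 554, 815 and 1103 CPM in knockout liver and 205, 448 and 572 CPM in wild-type liver, a log2 change of 0.98 ± 0.22 (edgeR adjusted p = 0.0815). Of 20 cytosolic aminoacyl-tRNA synthetases and their scaffold genes, 18 were positive with a median of 0.53 (10 of 20 under library totals), among them aimp2 at 0.73 ± 0.21 (edgeR adjusted p = 0.0945). Termination, recycling and poly(A)-binding genes were positive for 9 of 11 (3 with library totals), with a median of 0.41. Of 18 genes of mTORC1 and its regulators 12 were positive (2 with library totals) with a median of 0.12. Of 13 targets of the integrated stress response, the programme set off by eIF2 phosphorylation, 10 were positive (4 with library totals, 7 with cyclic loess) with a median of 0.23. For the translation repressors and eIF2 kinases 6 of 9 were positive (1 with library totals) with a median of 0.33, and the gene with the smallest p was impact, an inhibitor of the eIF2 kinase Gcn2, at -0.93 ± 0.46 (edgeR adjusted p = 0.23). The 5 mitochondrial translation factors tested were all positive (2 with library totals) with a median of 0.46. Of the 3 genes on the hypusine list 2 were positive, among them dohh, which completes hypusine on eIF5A, at 0.73 ± 0.24 (edgeR adjusted p = 0.123).

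Cell type markers were read in the same comparison, with TMM scaling. All 13 exocrine pancreas markers tested were positive, with 0 called by edgeR and a median log2 change of 0.85. Their summed level had a median of 709 CPM in knockout liver (110 to 3238 CPM) and 177 CPM in wild-type liver (31.9 to 2123 CPM). All 11 hepatocyte, 5 erythrocyte and 6 macrophage markers tested were positive too, with 0 called and median log2 changes of 0.49, 0.75 and 0.52. Of the other lists, 5 of 12 skeletal muscle markers, 4 of 8 oocyte markers and 0 of 4 endothelium markers were positive, with 0 called and median log2 changes of -0.03, -0.01 and -0.26. As CPM of the unscaled total, summed macrophage markers had a median of 214 in knockout and 235 in wild-type liver. In that order hepatocyte markers had 46310 and 45076, erythrocyte 585 and 492, and exocrine pancreas 533 and 192. Skeletal muscle markers had 2261 and 3262, oocyte 156 and 203, and endothelium 59.8 and 92.3, so the direction of some lists depended on the scaling. The part of these cell types in the members' values was not tested.

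In muscle the genotypes gave no such pattern. Of 67 members tested with edgeR, 0 were called, where 0.00% of 12415 genes (0 genes) were, and 0 had an unadjusted p under 0.05, where 4.74% of genes did. DESeq2 and limma-voom also called 0 members, where 0.00678% and 0.00% of genes were called. At an unadjusted p under 0.05 they had 0 and 2 members, with no share of all genes given here. Of the 67 members tested with edgeR, 23 were positive and 44 negative, with a median log2 change of -0.05 against 0.00 for all genes. With library totals, which moved the median of all genes to 0.13, 44 were positive. Without both muscle libraries numbered 6, 32 were positive. The member with the smallest p was eif1axa, one of the eIF1A genes, with 10.5, 19.7 and 25.5 CPM in knockout muscle and 17.1, 23.95 and 33.9 CPM in wild-type muscle, a log2 change of -0.33 ± 0.20 (edgeR adjusted p = 0.951). The start-codon factor gene eif1 had 221, 309 and 493 CPM in knockout muscle and 256, 428 and 530 CPM in wild-type muscle, a log2 change of -0.27 ± 0.19 (edgeR adjusted p = 0.954). The eIF3h gene eif3hb, at -0.36 ± 0.23, was the second by p among those lower, and eif4enif1 (0.30 ± 0.23), eef1a1l2 (0.39 ± 0.33) and eef1b2 (0.19 ± 0.19) had the smallest p among those higher. None passed, with edgeR adjusted p-values of 0.951 to 0.969. The most abundant member of each role did not pass either, and its groups overlapped. These members were eef1a1l1 (-0.01 ± 0.17), eef1g (-0.0018 ± 0.18), eif4a1b (-0.03 ± 0.18), eif3f (0.03 ± 0.18) and eif5a (0.04 ± 0.17). The others were eif2b4 (-0.01 ± 0.17), eif1b (-0.10 ± 0.18), eef2b (-0.12 ± 0.24) and eef2k (-0.33 ± 0.24).

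Whether the genotype difference in liver departed from that in muscle was tested as an interaction over all 32 libraries. Of 69 members, 1 was called, where 0.211% of 13725 genes were, and 37 were higher and 1 lower in liver than in muscle at an unadjusted p under 0.05, where 12.2% of genes were higher and 6.10% lower. The difference was positive for 56 members (24 with library totals), with a median of 0.69 for the members and 0.11 for all genes on the log2 scale. The 37 and the 56 include eef2kmt (1.52), which reached at least 10 counts in 8 knockout livers but in 0 wild-type livers. Its value is therefore a description, with no test. They also include eif3hb (1.28), which met the count rule in muscle alone. The 56 further include eif2d (0.96) and eif4e2 (0.94), which also met it in muscle alone. The values of these genes are likewise a description, with no test. The called member was eif3c, whose log2 change was 1.26 ± 0.30 larger in liver than in muscle (edgeR adjusted p = 0.05, just under the threshold). In muscle it had 41.7, 49.9 and 73.7 CPM in knockout and 37.9, 62.0 and 104 CPM in wild type, a log2 change of -0.23 ± 0.19 against 0.89 ± 0.22 in liver. The call held with DESeq2 (adjusted p = 0.0106), limma-voom (adjusted p = 0.00675), and edgeR with no filter (0.0193), with at least 50 counts in 8 libraries (0.0347) and without vitellogenin genes (0.0475). It was lost in edgeR with DESeq2 size factors (adjusted p = 0.0773), library totals (0.194), the replicate block (0.0595) and thinning (0.0978). In edgeR it was also lost without both muscle libraries numbered 6 (adjusted p = 0.0705). With cyclic loess, which was fitted in limma, it was lost too (limma adjusted p = 0.0761). With single libraries left out it held in 9 of 32 fits and was lost in 23, with adjusted p between 0.0365 and 0.142 by edgeR. The libraries whose removal kept the call were replicates 2, 5 and 8 of knockout liver, 2 and 5 of wild-type liver, 1 and 7 of knockout muscle, and 4 and 6 of wild-type muscle. Limma-voom called 13 members larger in liver, where 3.05% of genes were, and edgeR with library totals called 7 smaller, where 24.4% of genes were.

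Between tissues many factors differed, and more were higher than lower in liver with TMM scaling. In knockout fish 37 of 68 members tested were higher and 3 lower in liver than in muscle by edgeR, where 21.2% of 11685 genes were higher and 22.2% lower. In wild-type fish 37 of 66 members were called, where 33.9% of 10648 genes were. Of these 29 were higher in liver, as were 1596 of all genes, and 8 lower, as were 18.9% of genes. The median log2 change of the members was 0.89 in knockout fish, against -0.15 for all genes, and 0.48 in wild-type fish, against 0.01. All 76 cytosolic ribosomal protein genes tested were called higher in liver in each genotype, with medians of 2.50 in knockout and 2.00 in wild-type fish. Member counts equalled 18.6% of ribosomal protein counts in knockout liver and 43.4% in knockout muscle, and 19.1% and 48.0% in wild-type fish. In knockout fish the split of the members moved to 27 higher and 20 lower with library totals, where 10.7% of genes were higher and 66.5% lower. That scaling took the median of all genes to -1.03 and that of the members to -0.03. In wild-type fish 46 of 66 members were positive with library totals, as were 4327 of 10648 genes. The medians there were 0.33 for the members and -0.12 for all genes. Of the members, 28 were called higher and 3 lower in both genotypes, and 0 were called in opposite directions. The share of all genes called in both genotypes was not counted, so these counts have no background beside them. The members called lower in each genotype include eif3hb and eif4e2, which met the count rule in muscle alone. The 8 livers lay wholly above the 8 muscles for 28 members and below for 1 in knockout fish (9.41% and 7.75% of genes), and above for 13 and below for 4 in wild-type fish (6.87% and 9.22%). The 4 below in wild-type fish also include eif3hb and eif4e2, which entered through the tissue where they were high.

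The eIF3 subunits made up much of the liver side. In knockout fish 13 of 16 were called higher in liver with a median log2 change of 1.70, and in wild-type fish 11 of 16 with a median of 1.01; with library totals 13 of 16 were positive in each genotype, with medians of 0.82 and 0.84. The gene eif3ea had 260, 297 and 578 CPM in knockout liver, against 55.6, 63.8 and 94.4 CPM in knockout muscle, and 172, 270 and 408 CPM in wild-type liver, against 48.6, 89.5 and 96.6 CPM in wild-type muscle. The tissues did not overlap in either genotype, and the log2 changes were 2.36 ± 0.21 in knockout and 1.80 ± 0.21 in wild-type fish (edgeR adjusted p = 5.93e-10 and 3.25e-08). The genes eif3m (2.26 ± 0.23 and 1.69 ± 0.21) and eif3ha (1.96 ± 0.20 and 1.75 ± 0.21) did not overlap in either genotype. The paralogue of the last, eif3hb, went the other way: it had 0.806, 4.46 and 7.26 CPM in knockout liver, against 6.61, 9.69 and 12.5 CPM in knockout muscle, and 0, 2.72 and 4.79 CPM in wild-type liver, against 8.54, 13.8 and 24.3 CPM in wild-type muscle. This gene met the count rule in muscle alone, with at least 10 counts in 5 of 8 knockout and 1 of 8 wild-type livers, so it entered through the tissue where it was high. Its log2 changes of -1.19 ± 0.33 in knockout and -2.40 ± 0.37 in wild-type fish are therefore given as a description, with no test.

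Of the other roles, eif2s1b, which encodes eIF2 alpha, was higher in liver by 2.67 ± 0.26 in knockout and 1.89 ± 0.23 in wild-type fish on the log2 scale, without overlap. The eIF5A paralogue eif5a2 was higher by 2.37 ± 0.20 and 1.68 ± 0.22, also without overlap. All 4 eEF1B subunits were called higher in liver in each genotype, and eef1a1l1 was by 2.05 ± 0.20 in knockout and 1.54 ± 0.17 in wild-type fish, with 5468 to 14707 CPM in knockout liver, against 1739 to 3061 CPM in knockout muscle, and 5161 to 10359 CPM in wild-type liver, against 1931 to 3242 CPM in wild-type muscle. The size of these differences moved with the scaling. In wild-type fish the eEF1B median was 1.09 with TMM, 0.92 with library totals and 0.42 with cyclic loess, with all 4 positive each time. That of the 2 eEF1A genes tested was 1.04 with TMM and 0.27 with cyclic loess. The gene eif4e2 also met the count rule in muscle alone. Its log2 values of -1.05 ± 0.35 in knockout and -1.92 ± 0.31 in wild-type fish are given with no test. For eif1 the values were -0.53 ± 0.22 in knockout fish, which did not pass (edgeR adjusted p = 0.0576), and -1.42 ± 0.21 in wild-type fish, which did (adjusted p = 2.58e-06). For eif1 in knockout fish the difference passed with limma-voom (adjusted p = 0.0214), with library totals, cyclic loess and the stricter filter, and without knockout liver 1 (edgeR adjusted p = 0.00855). In mammals the eif4e2 product is a cap-binding homologue that acts in repression. The eEF2 kinase gene eef2k, named here after its values were seen, was lower in liver in wild-type fish, at -1.29 ± 0.25 (edgeR adjusted p = 0.00014) and had -0.57 ± 0.25 in knockout fish (adjusted p = 0.0698).

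**Figure D4:**
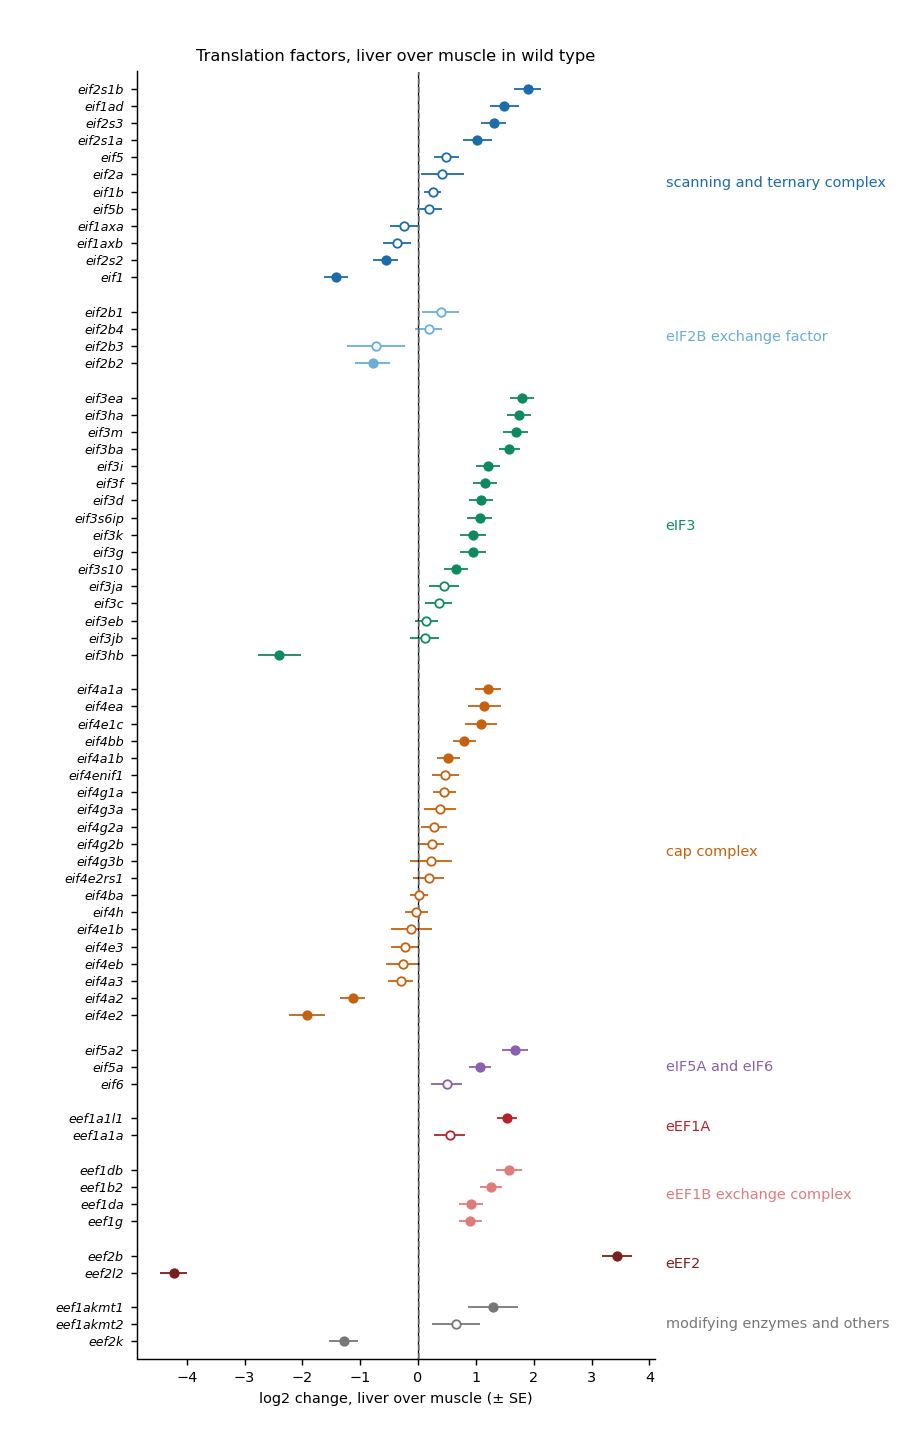
Log2 change of the 66 members tested, liver over muscle in wild-type fish, by role; points are edgeR estimates, bars are ± SE, and filled points passed an adjusted p of 0.05. The 2 eEF2 genes lie farthest out, eef2b at 3.43 and eef2l2 at -4.23. The points of eif3hb and eif4e2, which met the count rule in muscle alone, are filled but are a description, with no test.

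The eEF2 genes were split between the tissues. In knockout fish eef2b had 1532, 2287 and 4183 CPM in liver, against 71.0, 126 and 194 CPM in muscle, and in wild-type fish 1129, 1745 and 2475 CPM in liver, against 91.9, 144 and 371 CPM in muscle. For eef2l2 the values were 20.7, 26.7 and 28.99 CPM in knockout liver, against 334, 479 and 891 CPM in knockout muscle, and 19.5, 32.5 and 55.2 CPM in wild-type liver, against 377, 662 and 831 CPM in wild-type muscle. Neither gene overlapped between tissues. The log2 changes were 4.29 ± 0.25 in knockout and 3.43 ± 0.26 in wild-type fish for eef2b, and -4.30 ± 0.22 and -4.23 ± 0.23 for eef2l2 (edgeR adjusted p for eef2l2 = 1.33e-14 in knockout and 1.36e-14 in wild type). These calls held under each of the 11 alternatives run and with each single library left out.

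Shares within a family do not depend on library scaling. Of all eEF2 counts, eef2b took 98.9% ± 0.351 in knockout liver and 20.9% ± 7.70 in knockout muscle, and 98.1% ± 0.595 in wild-type liver and 21.7% ± 11.6 in wild-type muscle (SD, n = 8 each). Nearly all the rest was eef2l2, with 79.1% ± 7.81 in knockout muscle and 78.2% ± 11.6 in wild-type muscle. In each genotype the difference between tissues had an exact permutation p of 0.000155, the smallest that 8 against 8 libraries can give (adjusted p = 0.00107 over 48 share tests), and the shares did not overlap. The level of each eEF2 gene in the tissue where it was lower is given here beside the other tissue's markers. A link between them was not tested. The liver median of eef2l2 was 5.58% of its muscle median in knockout and 4.91% in wild-type fish, and summed skeletal muscle markers in liver were 3.83% and 3.02% of their muscle level. The muscle median of eef2b was 5.51% of its liver median in knockout and 8.28% in wild-type fish, and summed hepatocyte markers in muscle were 1.06% and 1.40% of their liver level. Wild-type muscle 6, with the highest hepatocyte markers, also had the highest eef2b share of its group, 49.6% against 13.7% to 21.7% in the other 7.

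**Figure D5:**
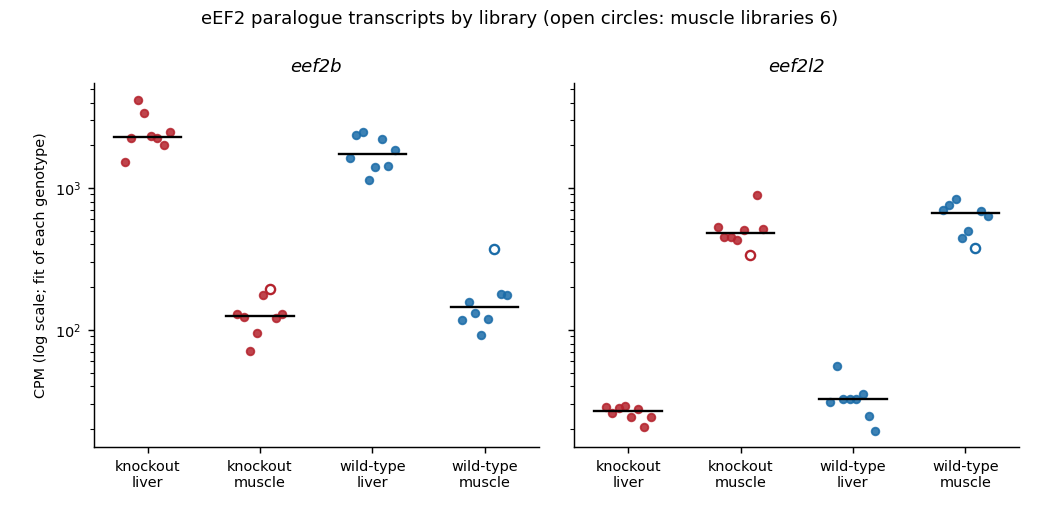
CPM of eef2b (left) and eef2l2 (right) in each of the 32 libraries, on a log axis, scaled within each genotype; bars are medians of 8 and open circles the muscle libraries numbered 6. For eef2b each liver lies above each muscle and for eef2l2 below; the highest muscle value of eef2b, 371 CPM, is wild-type muscle 6.

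Between genotypes, the eEF2 shares differed in liver by less than 1 percentage point. The eef2b share was 0.73 points higher in knockout liver (exact permutation test over 8 against 8 libraries, p = 0.00995, adjusted p = 0.0239), and the eef2l2 share was 1.09% ± 0.347 in knockout liver and 1.86% ± 0.586 in wild-type liver (SD, n = 8 each; exact permutation p = 0.0073, adjusted p = 0.0206). The ranges overlapped. Skeletal muscle markers were lower as a share of all counts, at 2267 ± 246 CPM of the unscaled total in knockout liver and 3363 ± 425 in wild-type liver (SD, n = 8 each). With TMM scaling their summed median was 2891 CPM in knockout liver and 2832 CPM in wild-type liver, and their part in the share difference was not tested. In muscle the eef2b share differed by -0.81 points (exact permutation p = 0.873). As the 2 genes hold nearly all eEF2 counts, their 2 liver results are 1 difference seen from both sides. With all libraries, no other family's share passed between genotypes in either tissue. The smallest adjusted p among those was 0.122, for eef1a1l1 in liver (exact permutation), which passed in 1 of 32 fits with a single library left out.

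Other families shifted less. The helicase eif4a2 held 5.02% ± 1.26 of eIF4A1 and eIF4A2 counts in knockout liver and 14.95% ± 3.04 in knockout muscle, and 5.75% ± 1.11 in wild-type liver and 16.2% ± 3.56 in wild-type muscle (SD, n = 8 each). The tissues did not overlap (exact permutation p = 0.000155, adjusted p = 0.00107 in each genotype). Of the class I eIF4E genes, eif4e1c held 45.2% ± 8.53 in knockout liver and 24.9% ± 9.23 in knockout muscle (adjusted p = 0.00839, exact permutation), and 41.8% ± 10.6 in wild-type liver and 28.9% ± 5.62 in wild-type muscle (adjusted p = 0.0215), and the wild-type call was lost on thinning (adjusted p = 0.107, exact permutation). The eif4eb share, liver minus muscle, differed by -14.1 points in knockout (adjusted p = 0.0149, exact permutation) and -17.4 points in wild-type fish (adjusted p = 0.0137). The eif4ea share differed by 2.92 points in knockout (adjusted p = 0.543, exact permutation) and 9.67 points in wild-type fish (adjusted p = 0.038), and the wild-type call was lost without any of 10 single libraries (wild-type liver 2, 4, 5, 7 or 8, wild-type muscle 3, 4, 5, 6 or 8), with adjusted p up to 0.0702, and on thinning to the shallowest library (adjusted p = 0.0639, exact permutation). The eif4e1b share did not pass in knockout (adjusted p = 0.0512, exact permutation) or wild-type fish (adjusted p = 0.339), although it did in knockout fish without knockout liver 8, knockout muscle 1 or knockout muscle 7. These shares rest on few reads, 64 to 661 class I eIF4E counts per library over the 4 groups. Of the eIF4A genes, eif4a1a held 14.1% ± 5.33 in knockout liver and 8.93% ± 3.13 in knockout muscle (adjusted p = 0.0713, exact permutation), and 14.3% ± 1.74 in wild-type liver and 8.77% ± 4.39 in wild-type muscle (adjusted p = 0.0206). The eif4a1b share was higher by 4.74 points in knockout (adjusted p = 0.0755, exact permutation) and 4.91 points in wild-type fish (adjusted p = 0.0228); in knockout fish eif4a1a passed without knockout liver 8, and eif4a1b without knockout liver 2 or knockout muscle 2. Of eIF5A counts, eif5a2 held 17.7% ± 3.63 in knockout liver and 11.9% ± 2.93 in knockout muscle (adjusted p = 0.0115, exact permutation), and 15.8% ± 3.85 in wild-type liver and 10.9% ± 1.59 in wild-type muscle (adjusted p = 0.0159). The eEF1A counts were 99.4% to 99.9% eef1a1l1 by group mean. Its share was higher in liver than in muscle by 0.45 points in knockout (adjusted p = 0.00107, exact permutation) and 0.26 points in wild-type fish (adjusted p = 0.0115). In mammals EEF1A2 takes over from EEF1A1 in adult skeletal muscle, and zebrafish eef1a2 held at most 0.0549% of eEF1A counts in any library. Reads of near-identical copies can be split between paralogues in ways the counts do not show, and strand use was not given, so shares of single paralogues are uncertain to that extent.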

How the data were processed

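RNA of 8 livers and 8 muscles per genotype was sequenced from 3′ ends, and the authors deposited raw counts by gene symbol in a single table with a column for each library. Per the submitters' processing notes, fastp 0.23.4, BWA 0.7.17-r1188, Salmon 1.10.2 and GRCz11 were used, with no role stated. Strand use and removal of PCR duplicates are not stated in the sources at hand, so intervals of counting error would cover counting alone. Columns were matched to samples by library name, and 0 columns had no sample.

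From the deposited counts, each comparison was fitted over the whole table with edgeR 4.0.16 in R 4.3.3 (robust quasi-likelihood test, TMM scaling, filterByExpr at 10 counts and 15 in total) and Benjamini-Hochberg adjustment over all genes tested, with a threshold of 0.05. The SE given after ± for a log2 change, and in the figures, is approximate. It was derived as the absolute log2 change divided by the square root of the F statistic. CPM values are scaled to the TMM-adjusted total within each comparison, so levels of 1 library differ slightly between comparisons. The 4 pairwise comparisons took 16 libraries each and the interaction all 32. Only labelled groups were compared, and nothing says which samples shared a tank or day. Alternatives were DESeq2 1.42.0, limma-voom (limma 3.58.1) with quality weights, DESeq2 size factors, library totals, cyclic loess, no filter, at least 50 counts in 8 libraries, vitellogenin genes left out, the replicate number as a block, thinning to the shallowest library (median of 5 draws) and leaving out each library. Cyclic loess was applied to log2 CPM and fitted with limma's moderated test, so the test changed there along with the scaling. Leaving out both muscle libraries numbered 6 was chosen after seeing the data. Shares of a paralogue within its family, and gys2 with a pseudocount of 0.5, were tested with two-sided exact permutation tests, with adjustment over the 48 share tests. The scripts were tested on simulated data.

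The members named with values were those called in either genotype comparison or the interaction, up to 5 in each direction with the smallest p in liver and up to 3 in muscle, the most abundant of each role, up to 6 in each direction with the largest tissue difference without overlap in wild-type fish, each paralogue whose share was tested, and up to 2 of each related list with the smallest p in liver. The members and lists were chosen with earlier results of these data known. Group-to-group depth differed, with totals from 1514099 to 15351773 counts, and members under 10 CPM rest on few counts in the shallow libraries.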

Additional observations from a re-analysis of the deposited data

Results flagged for a closer look

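With 168 groups of 8 checked, chance alone flags about 1 in 20, and 7 levels and 4 shares had a library whose gap to its nearest neighbour was above Dixon's critical value for their group. In liver, eef1b2 was low in knockout liver 1, at 408 CPM against 735 to 1064 CPM in the other 7 (gap 0.614 of the range). Scaffold gene eif4g3a was low in knockout liver 2, at 2.72 CPM against 5.87 to 9.56 CPM (0.599), and eif4e2 had 0 CPM in knockout liver 8 against 1.55 to 5.00 CPM (0.589). The exchange factor gene eif2b4 was high in wild-type liver 3, at 36.4 CPM against 11.2 to 18.8 CPM (0.564), and without that library its log2 change in liver was 0.075.

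In muscle, eef2b was high in wild-type muscle 6, at 408 CPM against 100 to 193 CPM (0.533), eif4bb was high in wild-type muscle 1, at 43.3 CPM against 22.8 to 29.3 CPM (0.608), and eif4g3a was low in wild-type muscle 4, at 2.33 CPM against 6.68 to 15.7 CPM (0.534). Among the shares, eef2l2 held 1.84% of eEF2 counts in knockout liver 1 against 0.667% to 1.21% (0.536). In wild-type muscle 6 it held 50.4% against 78.3% to 86.3% (0.779), and eef2b held 49.6% against 13.7% to 21.7% (0.778); hepatocyte markers summed to 7482 CPM in this library, and their part in the share was not tested. The eif4eb share was 22.2% in wild-type muscle 7 against 39.9% to 48.8% (0.667).

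The genotype difference of eif3c was larger in liver than in muscle by 1.26 on the log2 scale, by the interaction test described above.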

How the results depend on the processing

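In liver, DESeq2 called 12 members, limma-voom 6, library totals 9 (all lower), no filter 1 and at least 50 counts 1, and the member median became -0.11 with library totals. In the interaction limma-voom called 13 and library totals 7, while DESeq2 size factors, cyclic loess, the replicate block, thinning and leaving out both muscle libraries numbered 6 each called 0. Between tissues in knockout fish the member median became -0.026 with library totals and 1.32 with at least 50 counts. With single libraries left out, 0 to 1 members were called in liver (1 without wild-type liver 2 or 5), 0 in muscle, 0 to 1 in the interaction, 40 to 45 between tissues in knockout and 33 to 38 in wild-type fish. The causes were not tested. For the fits with single libraries left out, shares of all genes called are not given here.

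The sign of small differences turned with the scaling. In liver, library totals gave -0.12 for eef1a1l1, -0.14 for eif3f, -0.20 for eef2k and -0.23 for eif1b, and cyclic loess -0.20 for eef1a1l1 and -0.33 for eif1b. In muscle, eef1a1l1 became 0.0016 with DESeq2, 0.0020 with DESeq2 size factors, 0.094 with library totals, 0.096 with cyclic loess and 0.028 without both muscle libraries numbered 6, and eef1g became 0.0070, 0.0078, 0.10, 0.064 and 0.024 in the same order. In muscle eif2b4 became 0.021 with limma-voom, 0.10 with library totals, 0.00038 with the replicate block and 0.014 without the libraries numbered 6, eif3f -0.11 with limma-voom and -0.011 with the block, and eif5a -0.062 with limma-voom. There eif4a1b became 0.059 with library totals and 0.0074 without the libraries numbered 6, eif1b 0.026 with cyclic loess and eef2b 0.064 without them. Thinning gave 1.99 points for the eif4e1b share between genotypes in liver, and the wild-type tissue difference of the eif4e1c share had an adjusted p of 0.107 by exact permutation.

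With single libraries left out, muscle log2 changes ran from -0.097 to 0.048 for eef1a1l1, -0.12 to 0.058 for eef1g, -0.22 to 0.16 for eef2b (above 0 without wild-type muscle 6 alone), -0.063 to 0.042 for eif2b4, -0.094 to 0.096 for eif3f, -0.14 to 0.038 for eif4a1b and -0.038 to 0.10 for eif5a, and in liver from -0.31 to 0.075 for eif2b4. Shares between genotypes in muscle ran from -3.05 to 3.18 points for eef2b, -3.09 to 3.17 for eef2l2, -0.46 to 1.26 for eif4a1a, -1.78 to 1.71 for eif4ea and -2.05 to 2.26 for eif4eb, and in liver from -1.16 to 0.99 for eif4a1a, -0.15 to 1.70 for eif4a1b and -2.20 to 0.45 for eif4e1b.

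Not every pair of same-numbered libraries correlated above 0.1, so the numbers were not taken to pair the samples. Between livers and muscles 0 of 8 pairs did in wild-type and 2 of 8 in knockout fish, with median correlations of deviations of -0.0095 and -0.015. Between genotypes 3 of 8 pairs did in liver and 6 of 8 in muscle, where the highest was 0.433. Their median correlation was 0.0485 in liver and 0.134 in muscle, and 2 of 8 in liver and 3 of 8 in muscle correlated best with their own number. With the replicate block 0 members were called in liver and in muscle, 40 between tissues in knockout and 34 in wild-type fish. For these counts too, shares of all genes called are not given. Members under 10 CPM and the class I eIF4E shares are limited by depth.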
